A study of Mus musculus with 30 samples.

Results

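The nuclear-encoded subunits of respiratory complexes III, IV and V were examined in AML12 cells by RNA sequencing. Members were the protein-coding mouse genes whose symbols start with Uqcr, Cox4i, Cox5, Cox6, Cox7, Cox8 or Atp5, together with Cyc1 and Cycs. This rule was met by 45 of the 49089 genes counted, 9 of complex III, 18 of complex IV, 17 of complex V and cytochrome c. Counts were present for 42 of them, and 37 passed the filter on low counts that left 11368 genes for testing.

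AML12 is an established, immortalized line of mouse hepatocytes. The study asked how the forkhead transcription factors FoxK1 and FoxK2 shape gene expression before and after insulin. Cells carried a non-targeting siRNA (Control), siRNA against FoxK1 (FoxK1 KD), siRNA against FoxK2 (FoxK2 KD) or both (DKD), and all of them were starved of serum overnight in DMEM with 0.1% BSA. The insulin groups then received 100 nM insulin for 6 h, and the basal groups were mock treated, which the labels list as a treatment time of 0 min. Each of the 8 groups held 4 samples, except that Control and DKD cells after insulin had 3 each, which made 30 samples. The labels do not say whether replicates were separate cultures, so p-values measure only the spread between these samples. Transient siRNA in 1 cell line is the only genetic model here, and the residual FoxK mRNA is given below.

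Complex III passes electrons from ubiquinol to cytochrome c, complex IV hands them to oxygen, and both pump protons across the inner mitochondrial membrane. Complex V, the ATP synthase, lets protons flow back through its membrane rotor and uses this flow to make ATP. Most subunits are encoded in the nucleus and imported, whereas a few central ones are encoded by the mitochondrial genome. Several subunits exist as isoforms, with separate genes for the liver or ubiquitous form and for the heart and muscle form. Hepatocytes rely on these complexes for fatty acid oxidation and for the ATP that gluconeogenesis consumes.

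Libraries held 2141460 to 5668270 counted reads. Levels are given as CPM, counts scaled to library size with TMM factors, and changes as log2 fold changes ± SE with edgeR FDR, the Benjamini-Hochberg adjusted p of edgeR's quasi-likelihood test over 11368 genes. A member was called when its edgeR FDR was below 0.05. Residual Foxk1 mRNA, relative to the Control mean of the same treatment, was 45.2% (FoxK1 KD) and 57.1% (DKD) at basal, then 58.2% and 64.6% after insulin. Residual Foxk2 mRNA was 33.7% (FoxK2 KD) and 35.8% (DKD) at basal, then 40.4% and 39.5% after insulin. Of 11 hepatocyte markers the highest medians were those of the keratins Krt18 and Krt8 at 1090 and 713 CPM and of the factor Hnf4a at 137 CPM. Alb (albumin) had a median of 6.77 CPM with a range of 2.5 to 65.2, and the lowest medians were 0.371 for Apoa1 and 0 for Apoa2. Their summed level was 1513 to 2457 CPM in Control, 1692 to 1837 in FoxK1 KD, 1769 to 2128 in FoxK2 KD and 2322 to 2426 in DKD samples at basal, and 1934 to 2319, 2031 to 2359, 1809 to 2216 and 1833 to 2207 CPM after insulin. Of the 9 hepatocyte markers tested, 3 (33.3%) rose and none fell in DKD cells at basal, beside 10.3% and 10.8% of all genes. With insulin in Control cells 3 (33.3%) also rose and none fell, beside 12.4% and 13.1%. Without Control basal replicate 1, 5 and 2 rose in these comparisons, beside 13% and 13.1% of all genes. In FoxK1 KD cells at basal 1 rose and 1 fell (11.1% each, beside 3.39% and 4.71%). With insulin in DKD cells 1 rose and 1 fell (11.1% each, beside 8.31% and 7.99%). The part of these markers in the results below was not tested. Of 17 markers of other liver cell types 3 had no count (Adgre1, Epcam and Pdgfrb), while the biliary and progenitor markers Krt19 and Sox9 were at 471 and 189 CPM. Only Krt19, Sox9 and Csf1r (median 9.06 CPM) were tested. In FoxK1 KD cells at basal Csf1r rose, while Krt19 and Sox9 fell (log2 fold change 1.015, -0.70 and -0.395). In DKD cells at basal Csf1r rose and Sox9 fell (0.79 and -0.45). The numbers of these calls were the same without Control basal replicate 1. Csf1r fell with insulin in every genotype (-1.70 to -1.005). Krt19 then rose in FoxK1 KD and FoxK2 KD cells, and Sox9 fell in Control. Their part in later results was not tested. The summed level of these 17 markers was 635 to 1058 CPM in Control, 529.8 to 600.1 in FoxK1 KD, 614 to 712 in FoxK2 KD and 630.1 to 675 in DKD samples at basal, and 751 to 787, 617 to 735, 716 to 852 and 657 to 745 CPM after insulin. In bulk RNA, fewer cells of a type and less RNA per cell cannot be told apart.

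The library labelled Control basal replicate 1 stood apart from the other 3 Control basal libraries. Among the 37 members tested, 18 were above and 12 below all 3 other replicates, and 10 differed by over 1.5-fold from the median of those 3. Over all genes 20% differed by that much in replicate 1, against 4.8% to 5.11% in replicates 2, 3 and 4. Counts of members called in comparisons that use the Control basal group are given with and without this library. The farthest member was Cox7c, at 543 CPM in replicate 1 and 108 to 143 in the other 3. Next came Atp5g3, Atp5d, Cox5a and Cox7a2l, which were 2.04-fold, 1.79-fold, 1.79-fold and 1.79-fold above the median of the other 3. Cox8a, at 0.593 of that median, was the farthest below.

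The members spanned a wide range of levels per length. In CPM per kb of exon, the group means of the catalytic subunits Atp5b and Atp5a1 were 372 to 410.1 and 302 to 352. The highest member of complex IV was Cox6a1 at 236 to 358 CPM per kb, and the highest of complex III was Cyc1 (cytochrome c1) at 151 to 245. Cycs, the mobile electron carrier between complexes III and IV, had a lower level per length at 3.58 to 5.98 CPM per kb. The lowest member tested was Atp5l, the g subunit of the membrane part, at 0.524 to 0.789 CPM per kb. Atp5l has 8 near-identical copies elsewhere in the genome, on which 59 reads were counted in all beside its own 431. Its exonic length, by which the level is divided, is 6443 bp. The cause of its low level was not tested. Uqcrc1, a core protein of complex III, had 3 reads over all 30 samples, whereas its partner Uqcrc2 had 37184, and the cause was not tested.

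**Figure D1:**
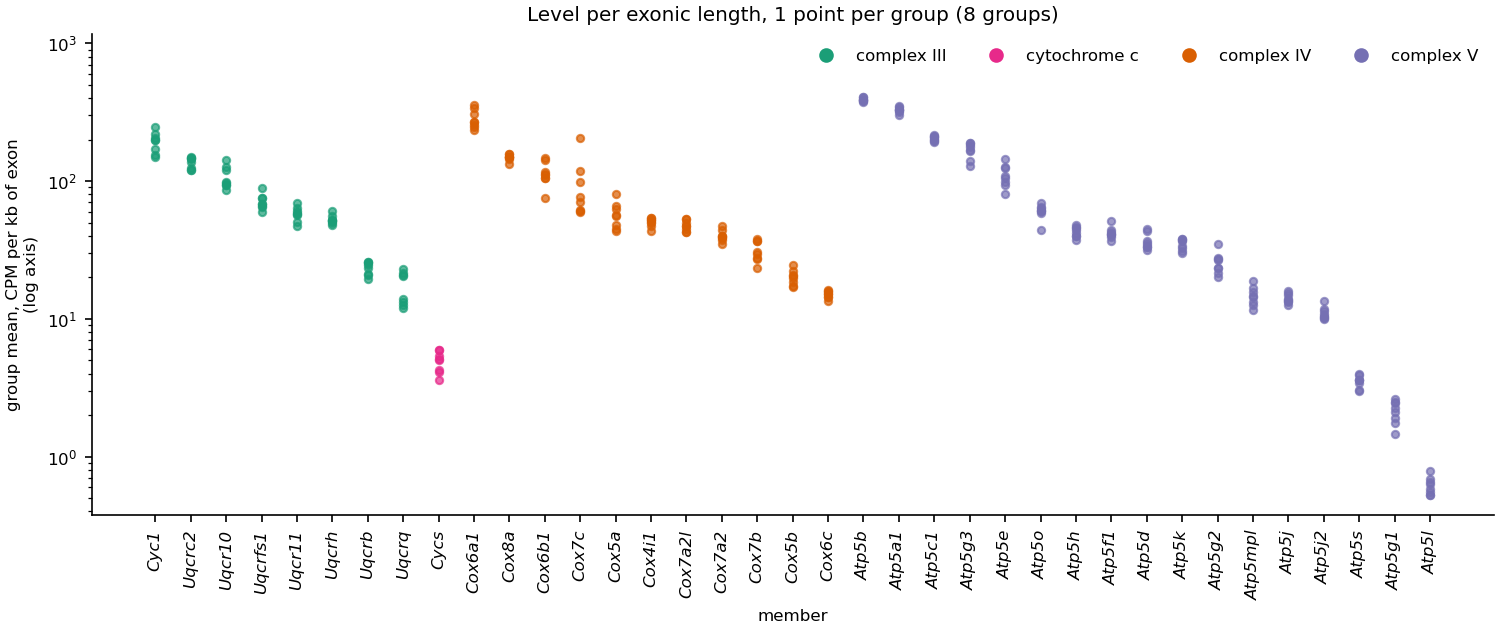
Level of the 37 tested members per exonic length, as the group mean in CPM per kb of exon on a log axis, with 1 point for each of the 8 groups and colours for the complexes. Levels ran from 0.524 to 0.789 CPM per kb for Atp5l to 372 to 410.1 for Atp5b, and the 8 groups of a member mostly lay close together beside that range.

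Isoform choice was nearly exclusive. The heart and muscle isoform Cox6a2 had no count, and neither had the testis isoforms Cox7b2 and Cox8c. Cox4i2, Cox6b2 and Cox8b had 7, 2 and 1 reads in all, against 8490 for Cox4i1, 8635 for Cox6b1 and 10069 for Cox8a. The muscle isoform Cox7a1 had 111 reads and was not tested. It stood at 3.12, 1, 1.99 and 1.96 CPM in Control basal samples and at 0 to 1.90 CPM in the other groups. Of the 4 Control basal samples 3 were above every other sample of Cox7a1.

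The ubiquitous isoforms were measured in every sample. Cox4i1, whose product is the regulatory subunit that contacts the mitochondrially encoded core, is the first of them. At basal, Cox4i1 stood at 100.4, 62.5, 70.2 and 78.8 CPM in Control, at 74.5, 90.4, 67.8 and 61.3 in FoxK1 KD, at 54.95, 76.7, 96.8 and 97.4 in FoxK2 KD and at 74.4, 70.1, 89.8 and 88.3 in DKD samples. After insulin, Cox4i1 stood at 92.02, 54.4 and 56.6 CPM in Control, at 76.1, 88.1, 71.1 and 101 in FoxK1 KD, at 71.9, 75.9, 92.2 and 65.5 in FoxK2 KD and at 97.3, 91.7 and 60.8 in DKD samples. All 8 groups of Cox4i1 overlapped, and it was called in none of the 13 comparisons. At basal, Cox7a2 stood at 32.04, 32.8, 32.5 and 42.9 CPM in Control, at 56.6, 63.7, 29.6 and 27.6 in FoxK1 KD, at 35.8, 38.4, 40.9 and 52.97 in FoxK2 KD and at 30.7, 31.4, 42.6 and 41.3 in DKD samples. After insulin, Cox7a2 stood at 47.99, 33.2 and 31.8 CPM in Control, at 29.9, 39.6, 41.9 and 37.5 in FoxK1 KD, at 30.9, 32.2, 31.9 and 37.5 in FoxK2 KD and at 39.8, 43.3 and 30.1 in DKD samples. Cox7a2, the liver form of subunit VIIa, overlapped between groups too and was not called. Cox7a2l, which despite its name acts in the assembly of supercomplexes, was highest in Control basal replicate 1. At basal, Cox7a2l stood at 116, 63.5, 67.5 and 64.8 CPM in Control, at 62, 58.4, 72.9 and 59.4 in FoxK1 KD, at 63.9, 56.01, 65.3 and 66.6 in FoxK2 KD and at 91.3, 70.97, 82.8 and 71.1 in DKD samples. After insulin, Cox7a2l stood at 71.98, 72.1 and 63.8 CPM in Control, at 65.02, 70.2, 70.3 and 61.99 in FoxK1 KD, at 70.99, 89.4, 67.95 and 66.5 in FoxK2 KD and at 65.6, 56.9 and 87.5 in DKD samples. Cox7a2l was called in no comparison, and 1571 reads were counted on its near-identical copy Gm6969 beside its own 7644. Cox8a, a small membrane subunit of complex IV, was lowest in the same library. At basal, Cox8a stood at 55.6, 80.5, 93.8 and 97.7 CPM in Control, at 92.1, 97.4, 99.8 and 78.4 in FoxK1 KD, at 73.2, 90.1, 113 and 117 in FoxK2 KD and at 91.6, 81.7, 105 and 92.9 in DKD samples. After insulin, Cox8a stood at 101, 97.03 and 79.5 CPM in Control, at 78.7, 94.8, 83.8 and 99.1 in FoxK1 KD, at 98.98, 86.7, 107 and 96.4 in FoxK2 KD and at 109, 81.7 and 85.99 in DKD samples. Cox8a was called in no comparison.

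The c subunit of the ATP synthase rotor is encoded by Atp5g1, Atp5g2 and Atp5g3, whose mature products are the same protein. Atp5g3 supplied most of the reads, a mean of 82.3% to 88.8% per group. Per exonic length, the share of Atp5g2 was 19.8% ± 2.27 (SD, n = 4) in DKD basal samples and between 10.8% and 13.4% in the other 7 groups. At basal, Atp5g2 stood at 55.9, 42.3, 40.2 and 46.8 CPM in Control, at 34.6, 17.8, 42.8 and 38.8 in FoxK1 KD, at 33.03, 41.2, 35.9 and 34.95 in FoxK2 KD and at 66.6, 62.8, 55.99 and 50.1 in DKD samples. After insulin, Atp5g2 stood at 42.5, 40.1 and 35.8 CPM in Control, at 38.05, 42.2, 40.6 and 35.6 in FoxK1 KD, at 52.7, 41.3, 40.95 and 45.4 in FoxK2 KD and at 43.7, 40.6 and 53.05 in DKD samples. Atp5g2 was above all Control basal samples in 3 of the 4 DKD basal samples, without a call (log2 fold change 0.35 ± 0.14, edgeR FDR 0.0786). It was called higher in DKD cells without Control basal replicate 1 (log2 fold change 0.44 ± 0.14, edgeR FDR 0.0212). At basal, Atp5g1 stood at 12.2, 8.75, 8.19 and 11.96 CPM in Control, at 7.92, 10.9, 8.23 and 7.22 in FoxK1 KD, at 9.57, 9.18, 7.56 and 11.4 in FoxK2 KD and at 7.75, 6.98, 5.55 and 8.22 in DKD samples. After insulin, Atp5g1 stood at 13.4, 10.8 and 11.6 CPM in Control, at 11.4, 13.8, 13.6 and 12.6 in FoxK1 KD, at 12.8, 12.7, 12.4 and 10.7 in FoxK2 KD and at 10.5, 14.3 and 8.4 in DKD samples. Atp5g1 rose with insulin in FoxK1 KD cells, where the groups did not overlap (log2 fold change 0.60 ± 0.18, edgeR FDR 0.0123), and 362 reads were counted on its copy Gm10039 beside its own 1113.

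In DKD cells at basal, 9 of the 37 members fell and none rose, beside 10.8% and 10.3% of all genes tested. The 9 members are 24.3% of those tested. They were Cox7c, Cox5a, Cox7b and Cox6a1 of complex IV, Uqcrfs1 and Uqcr10 of complex III, Cycs, and Atp5f1 and Atp5g3 of complex V. The median log2 fold change of the 37 was -0.14, against -0.001 over all genes, and members ranged from -1.79 to 0.37. Without Control basal replicate 1, 7 members fell and 1 rose, beside 13.9% and 13% of all genes.

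Cox7c, a small membrane subunit of complex IV, showed the largest fall in this comparison (ENSMUSG00000017778.14, GRCm38 chr13:86044816-86046904, minus strand). At basal, Cox7c stood at 543, 108, 143 and 142 CPM in Control, at 118, 165, 57.4 and 107 in FoxK1 KD, at 119.8, 150.1, 123 and 139 in FoxK2 KD and at 55.7, 62.8, 84.2 and 68.8 in DKD samples. After insulin, Cox7c stood at 92.5, 54.05 and 60.99 CPM in Control, at 84.96, 93.7, 82.98 and 82.8 in FoxK1 KD, at 55.1, 61.6, 91.3 and 69.9 in FoxK2 KD and at 98.8, 96.3 and 44.6 in DKD samples. All 4 DKD basal samples were below all 4 Control basal samples (log2 fold change -1.79 ± 0.33, edgeR FDR 0.000214). Without Control basal replicate 1 the fall was smaller (log2 fold change -0.98 ± 0.22, edgeR FDR 0.00109). Cox5a, a matrix-facing subunit of the same complex, followed (ENSMUSG00000000088.6, chr9:57521274-57532426, plus strand). At basal, Cox5a stood at 254, 153, 142 and 135 CPM in Control, at 144, 173, 126 and 116 in FoxK1 KD, at 108, 139, 129 and 154 in FoxK2 KD and at 97.05, 92.5, 95.3 and 90.4 in DKD samples. After insulin, Cox5a stood at 116, 138 and 97.8 CPM in Control, at 103, 125, 118 and 132 in FoxK1 KD, at 108, 105, 98.9 and 90.4 in FoxK2 KD and at 101, 83.2 and 91.3 in DKD samples. The DKD basal samples of Cox5a lay in a narrow band below every Control basal sample (log2 fold change -0.86 ± 0.14, edgeR FDR 6.96e-05), and the fall was smaller without that Control library (log2 fold change -0.61 ± 0.12, edgeR FDR 0.000152).

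Cox7b is another small membrane subunit of complex IV (ENSMUSG00000031231.4, chrX:106015700-106022450, plus strand). At basal, Cox7b stood at 36.3, 46.3, 51.1 and 43.8 CPM in Control, at 39.6, 59.7, 39.3 and 38.5 in FoxK1 KD, at 46.6, 48.01, 46.03 and 45.3 in FoxK2 KD and at 25.3, 25.9, 31.9 and 30.04 in DKD samples. After insulin, Cox7b stood at 36.1, 25.6 and 37.7 CPM in Control, at 33.99, 36.2, 42.8 and 34.5 in FoxK1 KD, at 29.1, 39.3, 28.5 and 38.1 in FoxK2 KD and at 35.4, 34.05 and 38.02 in DKD samples. Control and DKD samples of Cox7b did not overlap at basal (log2 fold change -0.66 ± 0.14, edgeR FDR 0.000836). The value was -0.74 ± 0.14 when Control basal replicate 1 was left out. FoxK2 KD samples of Cox7b lay within the Control range, and 1 FoxK1 KD sample, replicate 2, was far above its group. Cox6a1 encodes the liver form of subunit VIa. At basal, Cox6a1 stood at 309, 189, 275 and 232 CPM in Control, at 292, 248, 162 and 168 in FoxK1 KD, at 214, 233, 250.3 and 253 in FoxK2 KD and at 161, 154, 179 and 168 in DKD samples. After insulin, Cox6a1 stood at 260, 182 and 123 CPM in Control, at 156, 174, 202 and 218 in FoxK1 KD, at 164, 157, 207 and 167 in FoxK2 KD and at 193, 205 and 145 in DKD samples. All DKD basal samples of Cox6a1 were below all Control basal samples (log2 fold change -0.60 ± 0.17, edgeR FDR 0.01), while FoxK1 KD samples spanned both ranges. The value was -0.50 ± 0.17 without Control basal replicate 1.

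In complex III, Uqcrfs1 encodes the Rieske iron-sulfur protein, which takes electrons from ubiquinol (ENSMUSG00000038462.3, chr13:30540308-30545362, minus strand). At basal, Uqcrfs1 stood at 146, 93.02, 128 and 115 CPM in Control, at 112, 109, 103 and 87.5 in FoxK1 KD, at 93.5, 97.2, 109 and 111 in FoxK2 KD and at 77.8, 89, 79.6 and 76.5 in DKD samples. After insulin, Uqcrfs1 stood at 79.9, 89.8 and 94.3 CPM in Control, at 97.5, 94.1, 92.7 and 77.95 in FoxK1 KD, at 88.2, 98.5, 95.9 and 89.5 in FoxK2 KD and at 94.6, 89 and 95.7 in DKD samples. DKD and Control basal samples of Uqcrfs1 did not overlap (log2 fold change -0.58 ± 0.10, edgeR FDR 0.000144), and the call held without Control basal replicate 1 (log2 fold change -0.48 ± 0.10, edgeR FDR 0.000409). Uqcr10 encodes a small membrane subunit. At basal, Uqcr10 stood at 58.7, 67.8, 68.97 and 84.5 CPM in Control, at 69.5, 87.1, 79.99 and 56.7 in FoxK1 KD, at 62.97, 78.6, 85.2 and 107 in FoxK2 KD and at 49.96, 40.7, 53.7 and 58.5 in DKD samples. After insulin, Uqcr10 stood at 64.9, 59.4 and 39.3 CPM in Control, at 45.4, 51.5, 64.3 and 68.3 in FoxK1 KD, at 55.3, 50.6, 56.1 and 64.9 in FoxK2 KD and at 67.6, 56.1 and 41.3 in DKD samples. The DKD basal samples of Uqcr10 were below all Control basal samples, the highest DKD value being next to the lowest Control value (log2 fold change -0.47 ± 0.17, edgeR FDR 0.0378). It was -0.55 ± 0.17 without Control basal replicate 1. The call was lost without Control basal replicate 2, 3 or 4 (edgeR FDR 0.051, 0.0581 and 0.154) and without DKD basal replicate 1, 2 or 3 (edgeR FDR 0.0778, 0.13 and 0.0518). Cycs encodes somatic cytochrome c. At basal, Cycs stood at 18.4, 18, 19.9 and 16.6 CPM in Control, at 13.8, 13.9, 13.6 and 14.7 in FoxK1 KD, at 10.8, 15.1, 18.8 and 13.6 in FoxK2 KD and at 14.6, 11.9, 10.2 and 12.1 in DKD samples. After insulin, Cycs stood at 21.4, 20.5 and 19.2 CPM in Control, at 20.7, 19.04, 23.7 and 17.1 in FoxK1 KD, at 13.01, 21.7, 19.4 and 15.1 in FoxK2 KD and at 18.1, 12.8 and 20.8 in DKD samples. Cycs was lower in all DKD than in all Control basal samples (log2 fold change -0.55 ± 0.17, edgeR FDR 0.0162). Control basal replicate 1 lay within the range of the other 3 for Cycs, and the fold change stayed at -0.55 ± 0.18 without it.

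In complex V, Atp5f1 encodes the b subunit of the stator stalk and Atp5g3 the main c subunit gene. Atp5f1 stood at 309.9, 178, 208 and 147 CPM in Control and at 152, 148, 121 and 178 in DKD basal samples, with overlap (log2 fold change -0.47 ± 0.15, edgeR FDR 0.0259). At basal, Atp5g3 stood at 599, 293, 472 and 285 CPM in Control, at 259, 247, 344 and 275 in FoxK1 KD, at 366, 399, 384 and 288 in FoxK2 KD and at 287, 343, 300.3 and 301 in DKD samples. After insulin, Atp5g3 stood at 419, 313 and 363 CPM in Control, at 406, 436, 413 and 399 in FoxK1 KD, at 327, 376, 453 and 445 in FoxK2 KD and at 397, 400.1 and 362 in DKD samples. Control and DKD basal samples of Atp5g3 overlapped (log2 fold change -0.42 ± 0.15, edgeR FDR 0.0456). The call of Atp5f1 was lost without Control basal replicate 1 or DKD basal replicate 1, 2 or 3 (edgeR FDR 0.194, 0.0514, 0.0508 and 0.0944). Atp5g3 was not called without Control basal replicate 1 or 3 or DKD basal replicate 1, 3 or 4 (edgeR FDR 0.303, 0.142, 0.111, 0.0862 and 0.0845). Calls of Cox7c, Cox5a, Cox7b, Cox6a1, Uqcrfs1 and Cycs held whichever of the 8 libraries was left out.

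**Figure D2:**
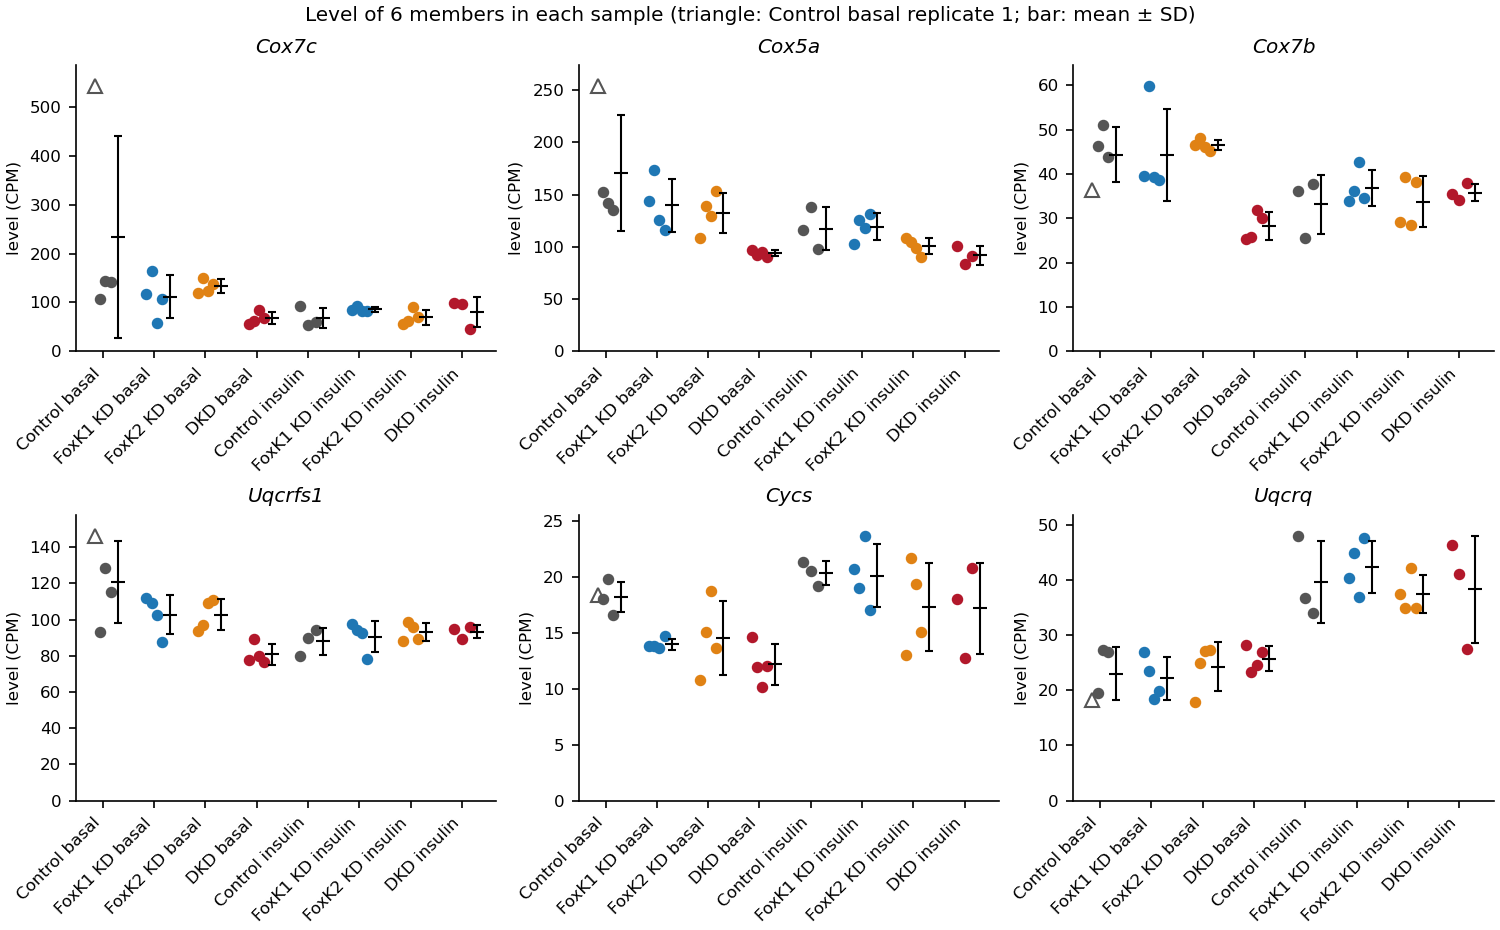
CPM of Cox7c, Cox5a, Cox7b, Uqcrfs1, Cycs and Uqcrq in each of the 30 samples by group, with the mean ± SD beside the points and Control basal replicate 1 as an open triangle. The 4 DKD basal samples of the first 5 genes sit below all Control basal samples, and the triangle of Cox7c stands at 543 CPM, far above the others.

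Low GC content went with lower levels in DKD basal samples. Over the 37 members, the log2 fold change of DKD against Control at basal and the GC content of the transcript had a Spearman rho of 0.35, and over all genes tested 0.47. The points share the same libraries, and no test was made. Cox7c, Cox5a, Cycs, Cox7b and Atp5f1 had a GC content of 38.4%, 41.6%, 40.8%, 42% and 37%. The Spearman rho of a library's own deviations with GC content was 0.191 to 0.446 in DKD basal samples. It was 0.171 in Control basal replicate 1 and -0.294 to -0.249 in the other 3 Control basal samples. With the GC and length trends of each library taken out, Cox7c, Cox5a, Cox7b, Cox6a1, Uqcrfs1, Uqcr10 and Atp5g3 were still called lower, whereas Cycs (edgeR FDR 0.148) and Atp5f1 (edgeR FDR 0.464) were not. Atp5c1, Atp5k and Cyc1 were called lower only with this correction (log2 fold change -0.25, -0.59 and -0.58, edgeR FDR 0.0223, 0.00619 and 0.00565), and the value of Cox6a1 went from -0.60 to -0.90. In all 10 members were then lower and none higher, beside 9.14% and 7.13% of all genes.

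**Figure D3:**
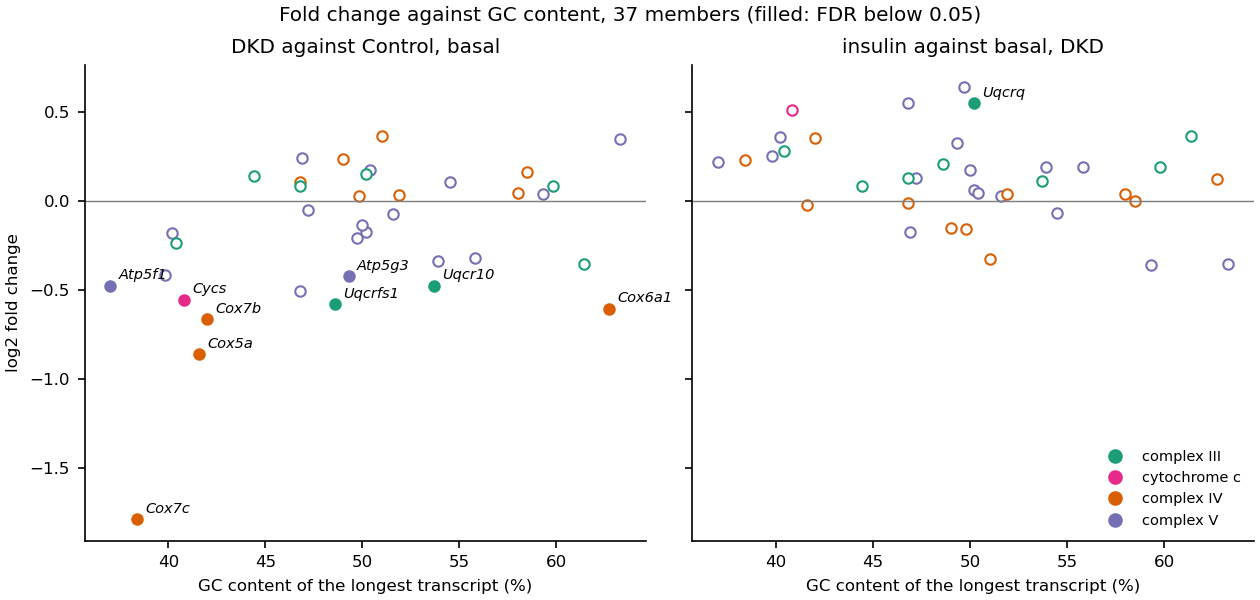
log2 fold change of the 37 members against the GC content of the longest transcript, shown for the DKD effect at basal and the insulin effect in DKD cells, with filled points for members called and colours for the complexes. In the DKD panel 5 of the 9 called members have a GC content of 37% to 42%, and Cox6a1 is called lower at 62.7%.

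A further feature touched the same comparison. In 12 libraries, those of Control, FoxK1 KD and FoxK2 KD at basal, 52 genes were below and 83 genes above all of the other 18 libraries, and no member was among them. The pseudogene Rps2-ps10 had 0 to 2 reads in each of the 12 libraries and 13 to 46 in the others. All 4 Control basal libraries are on one side of this split and all 4 DKD basal libraries on the other, so the split and the knockdown of both factors cannot be told apart at basal. The same holds for insulin in Control, FoxK1 KD and FoxK2 KD cells, whereas all DKD libraries are on the same side. The split therefore enters the DKD difference in insulin effect through the Control samples and cannot be told apart from it.

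Promoter sequence was read for the members that fell most, for those that fell and hold an NRF1 match, and for the member with a GTAAACA match. RefSeq windows on GRCm38.p6, from 250 bases before to 50 bases after each gene's start, were matched for 34 of the 45 members in 37 windows. The members without a match were Atp5a1, Atp5mpl, Cox4i1, Cox4i2, Cox6a2, Cox6c, Cox8c, Cyc1, Uqcrb, Uqcrc2 and Uqcrq. The letters GCGCATGC, a core of the NRF1 site, were found on either strand in 18.9% of the member windows and in 2.71% of all 32851 windows. CCGGAAG, a site of ETS factors such as GABPA, was found in 27% and 8.86%, and AAGATGGC, a YY1 site, in 8.11% and 2.75%. GTAAACA, a forkhead site, was found in 2.7% of the member windows, that of Cox7a2 alone, and in 3.65% of all windows. GCGCATGC overlaps its own reverse complement, so 1 stretch can match on both strands, and CCGGAAG and AAGATGGC can overlap each other because they share AAG. The sequences follow 5′ to 3′ on the strand of the gene, without bases of annotated exons, and capitals mark a match to any of these motifs.
Cox7c (chr13:86046905-86047045, minus strand, bases -250 to -110 from the start): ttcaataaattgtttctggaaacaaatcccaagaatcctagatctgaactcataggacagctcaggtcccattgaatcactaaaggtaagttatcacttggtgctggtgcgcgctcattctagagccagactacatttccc
Cox5a (chr9:57521082-57521231, plus strand, bases -150 to -1): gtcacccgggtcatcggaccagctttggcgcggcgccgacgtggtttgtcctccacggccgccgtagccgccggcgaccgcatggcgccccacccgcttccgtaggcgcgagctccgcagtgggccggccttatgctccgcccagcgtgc
Cox7b (chrX:106015550-106015699, plus strand, bases -150 to -1): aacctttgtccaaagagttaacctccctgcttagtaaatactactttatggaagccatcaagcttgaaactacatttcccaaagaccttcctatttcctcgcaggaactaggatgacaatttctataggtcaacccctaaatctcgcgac
Cox6a1 (chr5:115348982-115349129, minus strand, bases -171 to -24): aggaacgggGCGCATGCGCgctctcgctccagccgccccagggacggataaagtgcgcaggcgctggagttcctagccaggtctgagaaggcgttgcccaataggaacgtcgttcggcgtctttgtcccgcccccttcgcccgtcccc
Cycs (chr6:50566570-50566642, minus strand, bases -73 to -1): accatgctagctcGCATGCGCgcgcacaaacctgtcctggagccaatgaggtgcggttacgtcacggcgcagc
Cox7a2 (chr9:79759916-79760065, minus strand, bases -212 to -63): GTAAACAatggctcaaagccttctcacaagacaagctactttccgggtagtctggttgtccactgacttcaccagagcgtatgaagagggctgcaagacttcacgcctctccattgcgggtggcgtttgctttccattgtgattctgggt
Among the 9 members lower in DKD cells, Cox6a1 and Cycs held the NRF1 core, Cox6a1 also an ETS match at -16, and Atp5f1 a YY1 match at -3. The stretches of Cox7c, Cox5a and Cox7b hold none of the searched letters, which says only that these letters are not in this window. The forkhead search covered GTAAACA only. These letters differ from the FoxK motif that the paper proposes. That motif also allows A in place of the G and T in place of the C, and it has A or T just before them. The Cox7b stretch holds agtaaata, which fits the paper's motif and was picked out without a search. The windows were not searched for that motif, so its share among member windows or all windows was not taken. Binding was not tested. Cox7a2, with the GTAAACA match at -212, was called in no comparison.

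In FoxK1 KD cells at basal, 3 of 37 members fell (8.11%) and none rose, beside 4.71% and 3.39% of all genes. Cox7c was one of them (log2 fold change -1.06 ± 0.31, edgeR FDR 0.03), with overlap between the FoxK1 KD and Control samples listed above. Atp5g3 was the second (log2 fold change -0.55 ± 0.15, edgeR FDR 0.0222), also with overlap. Atp5o, the OSCP subunit that joins the catalytic head to the stator, was the third. It falls outside the rule for named genes and was chosen after its values were seen. Its level was 139, 100.5, 143 and 97.3 CPM in Control and 84.4, 81.2, 78.3 and 102 in FoxK1 KD samples (log2 fold change -0.47 ± 0.15, edgeR FDR 0.0433). Without Control basal replicate 1 no member was called by edgeR, beside 1.66% lower and 1.94% higher of all genes, and the fold changes were -0.24 ± 0.21 for Cox7c, -0.31 ± 0.13 for Atp5g3 and -0.38 ± 0.15 for Atp5o.
These 3 calls were also lost without other libraries, whereas 7 members were called without Control basal replicate 2. Cox7c missed the threshold without FoxK1 KD basal replicate 1, 3 or 4 (edgeR FDR 0.0515, 0.115 and 0.0685). Atp5g3 missed it without Control basal replicate 3 or FoxK1 KD basal replicate 1, 2 or 4 (edgeR FDR 0.0649, 0.0581, 0.09 and 0.0557), and Atp5o without Control basal replicate 3 or FoxK1 KD basal replicate 1, 2 or 3 (edgeR FDR 0.136, 0.0841, 0.123 and 0.116). Cycs, which stood at 13.8, 13.9, 13.6 and 14.7 CPM in FoxK1 KD samples, was below all Control samples without a call (log2 fold change -0.37 ± 0.16, edgeR FDR 0.142).

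In FoxK2 KD cells at basal no member was called by edgeR, DESeq2 or limma-voom, and 8 of 37 had an unadjusted edgeR p under 0.05. The share of all genes with such an unadjusted p was not taken, here or below. Of all genes 0.211% rose and 0.167% fell. The median log2 fold change of the members was -0.07, with a range from -0.80 for Cox7c to 0.40 for Atp5e. There was no call either when Control basal replicate 1 was left out, beside 0.0969% and 0.0176% of all genes. Cox7c was then at 0.022 ± 0.205 (edgeR FDR 0.915). The lowest unadjusted edgeR p of a member without that library was 0.0093, for Cox5b.

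**Figure D4:**
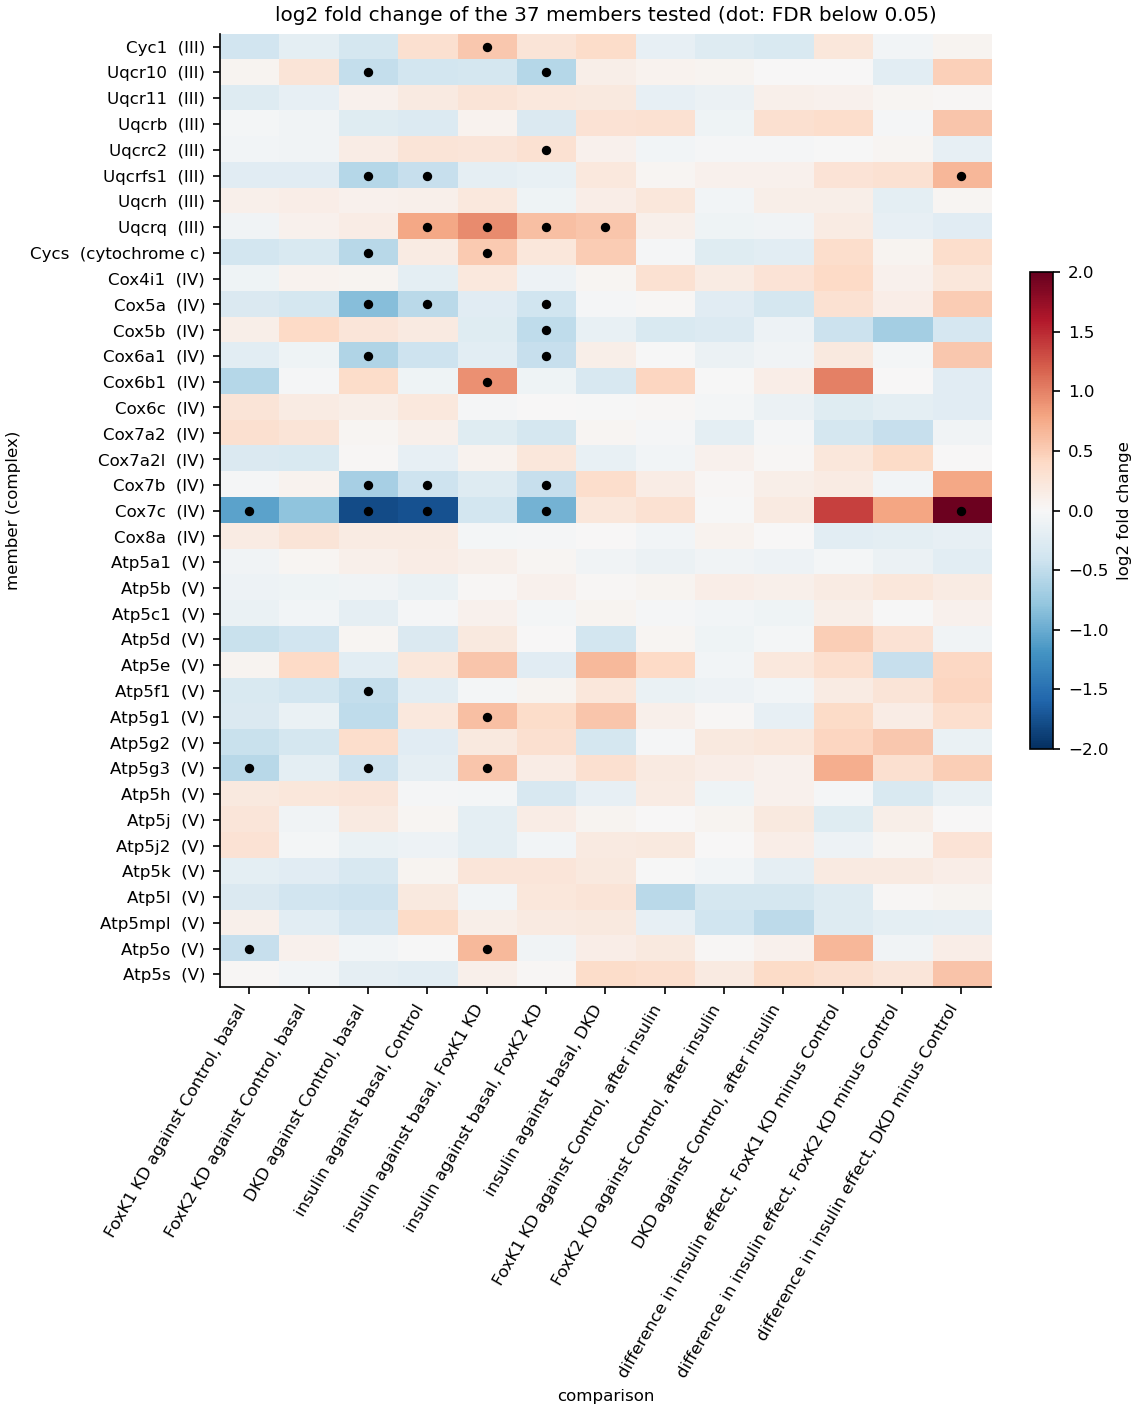
log2 fold change of the 37 members tested, ordered by complex, in the 13 comparisons, from blue (lower in the first group named) to red (higher), with a dot where the edgeR FDR was below 0.05. Cox7c is the deepest blue in the 3 knockdowns at basal and the deepest red in the DKD difference in insulin effect, and Uqcrq has dots under insulin in all 4 genotypes. Without Control basal replicate 1, Cox7c at basal was at -0.244 in FoxK1 KD, 0.022 in FoxK2 KD and -0.976 in DKD cells.

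Insulin raised Uqcrq in every genotype. Uqcrq encodes a small subunit of complex III known as the ubiquinone-binding protein (ENSMUSG00000044894.14, chr11:53427922-53430831, minus strand). At basal, Uqcrq stood at 18.1, 19.5, 27.3 and 26.96 CPM in Control, at 26.9, 23.4, 18.4 and 19.8 in FoxK1 KD, at 17.9, 24.9, 27.02 and 27.3 in FoxK2 KD and at 28.1, 23.3, 24.5 and 26.96 in DKD samples. After insulin, Uqcrq stood at 47.99, 36.7 and 33.95 CPM in Control, at 40.3, 44.8, 36.8 and 47.5 in FoxK1 KD, at 37.5, 34.9, 42.2 and 34.96 in FoxK2 KD and at 46.3, 41.02 and 27.4 in DKD samples. Every insulin sample was above every basal sample of its genotype, except that DKD insulin replicate 3 lay within the DKD basal range. The log2 fold change was 0.77 ± 0.17 in Control, 0.94 ± 0.16 in FoxK1 KD, 0.61 ± 0.15 in FoxK2 KD and 0.55 ± 0.17 in DKD cells (edgeR FDR 0.000671, 3.83e-05, 0.00339 and 0.0232). In DKD cells the call was lost without DKD basal replicate 2 or DKD insulin replicate 1 or 2 (edgeR FDR 0.0718, 0.225 and 0.0874). The 3 differences of its insulin effect from that of Control were not called.

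Insulin in Control cells lowered 4 members and raised Uqcrq, beside 13.1% lower and 12.4% higher of all genes tested. The 4 are 10.8% of the members. Cox7c (log2 fold change -1.74 ± 0.36, edgeR FDR 0.000446) had all 3 insulin samples below all basal samples. Cox5a (log2 fold change -0.54 ± 0.15, edgeR FDR 0.00962), Uqcrfs1 (log2 fold change -0.46 ± 0.11, edgeR FDR 0.0023) and Cox7b (log2 fold change -0.42 ± 0.15, edgeR FDR 0.0332) overlapped between basal and insulin. The median of the 37 members was -0.02, against -0.01 over all genes. No member of complex V was called or had an unadjusted edgeR p under 0.05. Without Control basal replicate 1, 3 members fell and 3 rose, beside 12.5% and 13.1% of all genes. Cox7c (log2 fold change -0.91 ± 0.23, edgeR FDR 0.00358), Uqcrfs1 (log2 fold change -0.35 ± 0.10, edgeR FDR 0.0108) and Cox7b (log2 fold change -0.49 ± 0.14, edgeR FDR 0.0102) were still lower without this library, whereas Cox5a was not called (log2 fold change -0.28 ± 0.12, edgeR FDR 0.08). Cyc1 (log2 fold change 0.42 ± 0.15, edgeR FDR 0.0427) and Uqcrc2 (log2 fold change 0.30 ± 0.11, edgeR FDR 0.0344) were then called higher. The call of Cox5a was also lost without Control insulin replicate 3 (edgeR FDR 0.0867), and that of Cox7b without Control basal replicate 2 or 3 or Control insulin replicate 2 (edgeR FDR 0.0591, 0.1 and 0.267).

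In FoxK1 KD cells insulin raised 7 members (18.9%) and lowered none, beside 16.2% and 15.4% of all genes. After Uqcrq the largest rise was in Cox6b1, a subunit on the intermembrane side of complex IV. At basal, Cox6b1 stood at 87.3, 59.3, 76.2 and 95 CPM in Control, at 65.4, 50.2, 38.1 and 59.9 in FoxK1 KD, at 54.3, 81.7, 95.3 and 81.1 in FoxK2 KD and at 80.97, 88.1, 137 and 109 in DKD samples. After insulin, Cox6b1 stood at 98.3, 56.3 and 68.5 CPM in Control, at 83.5, 111, 90.2 and 116 in FoxK1 KD, at 63.3, 57.2, 94.3 and 83.2 in FoxK2 KD and at 109, 96.3 and 43.8 in DKD samples. All FoxK1 KD insulin samples of Cox6b1 were above all FoxK1 KD basal samples (log2 fold change 0.91 ± 0.22, edgeR FDR 0.00206). The others were Atp5o, Atp5g1, Atp5g3, Cyc1 and Cycs, with log2 fold changes of 0.65, 0.60, 0.55, 0.54 and 0.52. In each of these 7 called members the insulin and basal samples did not overlap, and the share of all genes without overlap was not taken. With the GC and length trends taken out 7 members rose and 4 fell, beside 14.3% and 15.6% of all genes. The 4 that fell were Uqcr10, Cox6a1, Cox8a and Uqcrfs1 (log2 fold change -0.68, -0.58, -0.44 and -0.28, edgeR FDR 0.000883, 0.00317, 0.0107 and 0.0245), while Cyc1 lost its call and Uqcrc2 gained one. The call of Cycs was lost without FoxK1 KD insulin replicate 3 (edgeR FDR 0.0709), and the other 6 held without any 1 of the 8 libraries.

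In FoxK2 KD cells insulin lowered 6 members (16.2%) and raised 2 (5.41%), beside 13.7% and 14.4% of all genes. The members that fell were Cox7c (log2 fold change -0.94 ± 0.33, edgeR FDR 0.0289) and Uqcr10 (log2 fold change -0.57 ± 0.16, edgeR FDR 0.00789), then Cox5b, Cox7b, Cox6a1 and Cox5a with log2 fold changes of -0.50, -0.47, -0.46 and -0.40. Of the 6, 5 belong to complex IV, of whose 11 tested members the median was -0.36. Basal and insulin samples did not overlap for Cox7c, Cox7b, Cox6a1 and Cox5a, whereas 1 insulin sample of Uqcr10 lay above 1 basal sample. Here and in the other comparisons the share of all genes without overlap was not taken. Uqcrc2, a core protein of complex III, rose beside Uqcrq. At basal, Uqcrc2 stood at 353, 332, 281 and 314 CPM in Control, at 297, 360.1, 292 and 290.3 in FoxK1 KD, at 323, 308, 283 and 309.7 in FoxK2 KD and at 299.5, 328, 399 and 389 in DKD samples. After insulin, Uqcrc2 stood at 436, 322 and 383 CPM in Control, at 392, 392, 364 and 321 in FoxK1 KD, at 318, 396, 379 and 412 in FoxK2 KD and at 364, 389 and 375 in DKD samples. The rise of Uqcrc2 in FoxK2 KD cells was small, with 1 insulin sample inside the basal range (log2 fold change 0.30 ± 0.10, edgeR FDR 0.023).
Many of these calls rested on single libraries. Without FoxK2 KD insulin replicate 2 only 3 members were called, and without FoxK2 KD basal replicate 1 there were 9. Cox7c was lost without FoxK2 KD basal replicate 2 or 4 or insulin replicate 1, 2 or 4 (edgeR FDR 0.0655, 0.056, 0.0917, 0.0703 and 0.0537). Cox5a was lost without basal replicate 2, 3 or 4 or insulin replicate 2, 3 or 4 of the same genotype (edgeR FDR 0.0711, 0.0524, 0.131, 0.0519, 0.0711 and 0.0983), and Cox6a1 without basal replicate 2, 3 or 4 or insulin replicate 1, 2 or 4 (edgeR FDR 0.0635, 0.089, 0.0942, 0.101, 0.106 and 0.0857). Uqcrc2 was lost without basal replicate 3 or insulin replicate 2 or 4 (edgeR FDR 0.0751, 0.0636 and 0.0814), Cox5b without insulin replicate 2 (edgeR FDR 0.0591) and Uqcr10 without basal replicate 4 (edgeR FDR 0.061). Cox7b and Uqcrq held without any 1 of the 8 libraries.

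In DKD cells insulin raised 1 member, Uqcrq (2.7%), and lowered none, beside 8.31% and 7.99% of all genes, and 8 members had an unadjusted edgeR p under 0.05. Cox7c, Cox5a, Cox7b and Uqcrfs1 had log2 fold changes of 0.23, -0.02, 0.36 and 0.21, and none of these was called. The number of members called ran from 0 without DKD basal replicate 2 to 4 without DKD insulin replicate 3.

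After insulin, edgeR called no member in any knockdown against Control. In FoxK1 KD cells 1.86% of all genes rose and 1.72% fell, in FoxK2 KD cells 0.0088% and 0.0176%, and in DKD cells 0.871% and 0.343%. DESeq2 and limma-voom also called no member in these 3 comparisons. An unadjusted edgeR p under 0.05 was found for 0, 1 and 2 of the 37 members. The member log2 fold changes of DKD against Control after insulin ran from -0.52 to 0.39, with a median of 0.00.

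The insulin effect itself differed between DKD and Control cells for 2 members (5.41%), both higher and none lower, beside 1% and 0.537% of all genes. For Cox7c the difference was 1.97 ± 0.51 on the log2 scale (edgeR FDR 0.0423). It combines an insulin effect of 0.23 in DKD and -1.74 in Control cells. For Uqcrfs1 the difference was 0.66 ± 0.16 (edgeR FDR 0.0234), from 0.21 in DKD and -0.46 in Control cells. These values share the Control and DKD basal samples with the basal comparison. The split of libraries given above lies between Control basal and Control insulin samples, with all DKD samples on 1 side. It cannot be told apart from these differences. Without Control basal replicate 1 the difference was 1.14 ± 0.33 for Cox7c (edgeR FDR 0.0476), 0.56 ± 0.14 for Uqcrfs1 (edgeR FDR 0.0251) and 0.85 ± 0.21 for Cox7b (edgeR FDR 0.0176), so 3 members were called higher, beside 1.81% of all genes.
Both calls were close to the threshold. Cox7c was not called without DKD basal replicate 1, 2 or 4, Control insulin replicate 2 or 3, or DKD insulin replicate 1 or 2 (edgeR FDR 0.0866, 0.074, 0.0594, 0.112, 0.0878, 0.116 and 0.131). Uqcrfs1 was not called without DKD basal replicate 1, Control insulin replicate 1 or 2, or DKD insulin replicate 1, 2 or 3 (edgeR FDR 0.0524, 0.0586, 0.0529, 0.0523, 0.0509 and 0.0534). With only the 4 groups of the contrast in the fit, neither was called. For FoxK1 KD and FoxK2 KD no difference in insulin effect was called by edgeR, DESeq2 or limma-voom among the members, and edgeR called 0% of all genes in each direction. An unadjusted edgeR p under 0.05 was found for 4 and 3 members. Both counts of calls were also 0 without Control basal replicate 1.

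**Figure D5:**
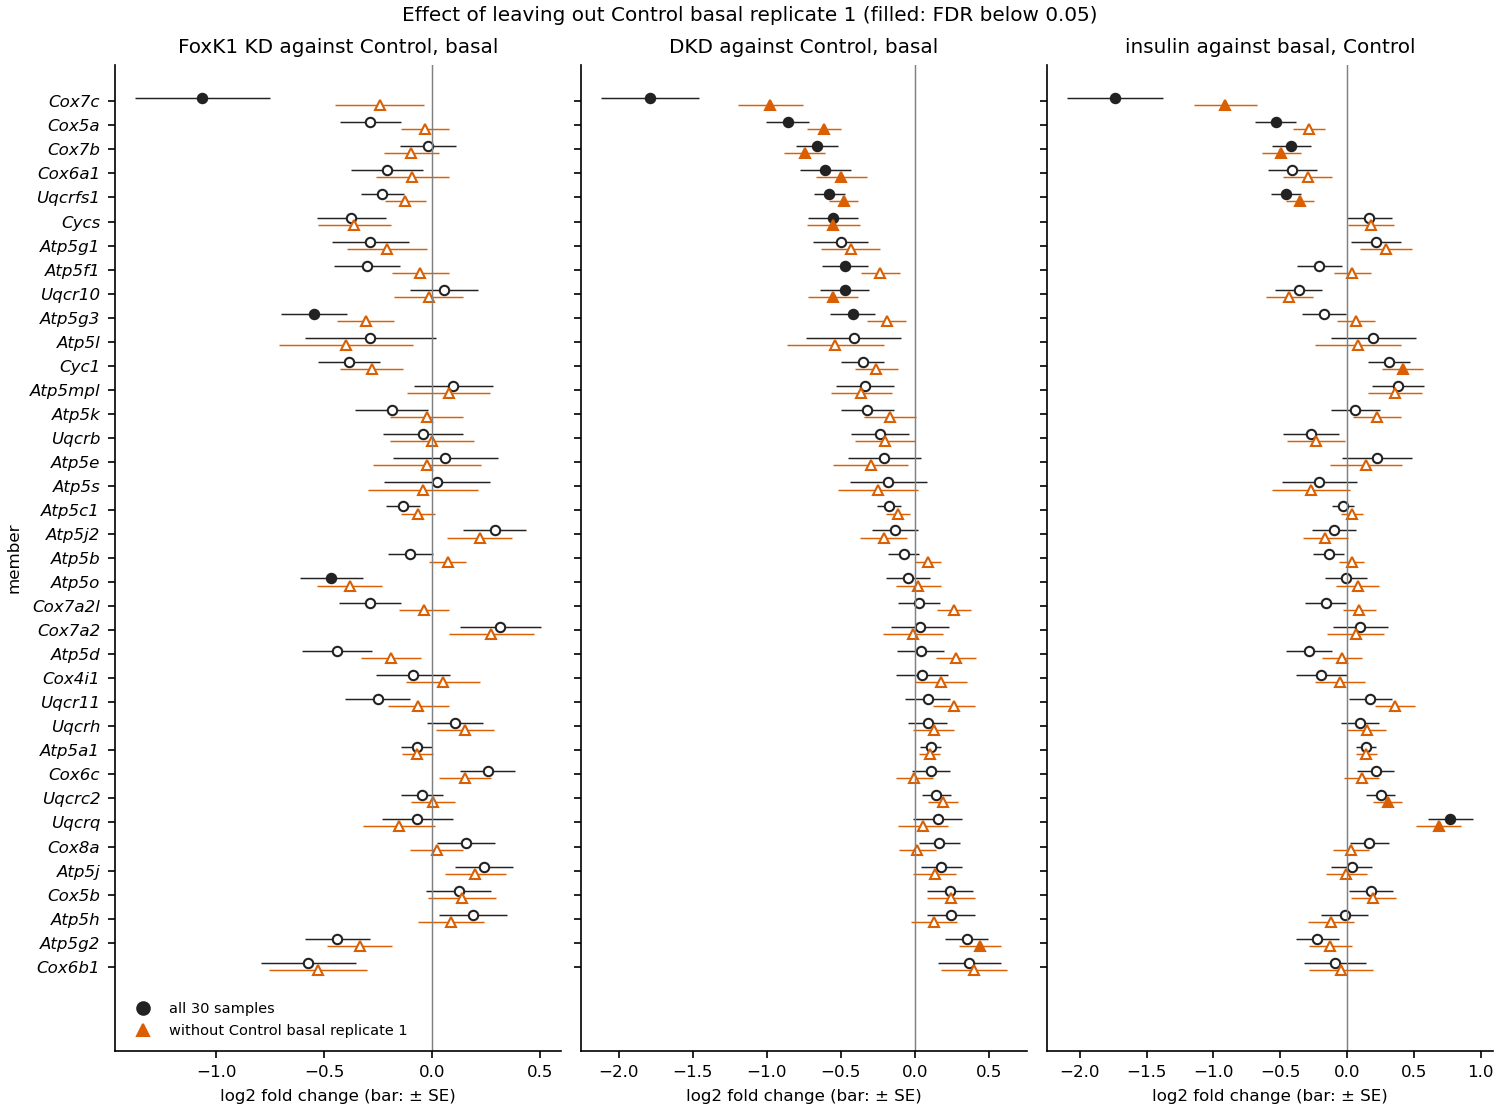
log2 fold change ± SE of the 37 members in 3 comparisons that use the Control basal group, fitted with all 30 samples (black circles) and without Control basal replicate 1 (orange triangles), filled where the edgeR FDR was below 0.05. Cox7c moves from -1.79 to -0.98 in DKD against Control, and the 3 filled points of FoxK1 KD against Control become open.

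Atp5d, a subunit of the central stalk of complex V, was among the members that moved most with that library. At basal, Atp5d stood at 125, 69.8, 65.7 and 75.4 CPM in Control, at 70.8, 52.8, 66.8 and 54.05 in FoxK1 KD, at 43.8, 64.95, 74.3 and 71.2 in FoxK2 KD and at 95.04, 77.4, 90.7 and 80.9 in DKD samples. After insulin, Atp5d stood at 76.2, 71.4 and 57.5 CPM in Control, at 63.9, 79.9, 53.3 and 84.6 in FoxK1 KD, at 68.3, 62.99, 70.7 and 56.1 in FoxK2 KD and at 71.96, 56.9 and 70.1 in DKD samples. Apart from replicate 1, the Control basal samples of Atp5d lay below all DKD basal samples without a call (log2 fold change 0.28 ± 0.14, edgeR FDR 0.129).

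Transcripts of the factors that assemble these complexes were also counted. Of 33 assembly factors 29 were tested, and in DKD cells at basal 4 rose (13.8%) and 5 fell (17.2%), beside 10.3% and 10.8% of all genes. There were 4 and 4 without Control basal replicate 1, beside 13% and 13.9% of all genes. The largest changes were in Cox17, the copper chaperone of complex IV, Uqcc3, an assembly factor of complex III, and Cox16, with log2 fold changes of -0.85 ± 0.16, 0.72 ± 0.20 and 0.60 ± 0.19 (edgeR FDR 0.000206, 0.0104 and 0.0212). With insulin, 3 rose and 3 fell in Control (10.3% each, beside 12.4% and 13.1% of all genes), and 8 and 1 in FoxK1 KD cells (27.6% and 3.45%, beside 16.2% and 15.4%). The counts were 6 and 3 in FoxK2 KD (20.7% and 10.3%, beside 14.4% and 13.7%) and 1 and 1 in DKD cells (3.45% each, beside 8.31% and 7.99%). Cox16 rose in the first 3 of these (log2 fold change 0.59 ± 0.20, 1.27 ± 0.20 and 0.88 ± 0.18, edgeR FDR 0.0304, 7.6e-06 and 0.000253). In Control it was not called without Control basal replicate 1 (0.53 ± 0.21, edgeR FDR 0.0599).

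Of the 6 subunits of complexes III to V encoded by the mitochondrial genome, 5 were tested. In DKD cells at basal mt-Co1 and mt-Cytb fell (log2 fold change -0.48 ± 0.12 and -0.67 ± 0.13, edgeR FDR 0.00496 and 0.000312), and mt-Co3, mt-Co2 and mt-Atp6 rose (1.55 ± 0.43, 1.20 ± 0.40 and 1.085 ± 0.37, edgeR FDR 0.00889, 0.0281 and 0.0341). mt-Co1 and mt-Cytb fall outside the rule for named genes and were chosen after their values were seen. In all, mt-Co3, mt-Co2 and mt-Atp6 had 599, 746 and 371 reads, against 428763 for mt-Co1 and 162411 for mt-Cytb. The rises rest on these low counts, whose cause was not tested. With insulin mt-Co1 and mt-Cytb fell in Control, FoxK1 KD and FoxK2 KD cells, and neither was called in DKD cells. mt-Co2 rose with insulin in FoxK2 KD cells (log2 fold change 1.28 ± 0.47, edgeR FDR 0.0401). Calls of these 5 genes in DKD cells at basal, and of mt-Co1 and mt-Cytb with insulin in Control cells, held without Control basal replicate 1. All counted genes of the mitochondrial genome took 0.989% to 1.26% of the reads in DKD basal and 1.32% to 2.13% in Control basal samples.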

How the data were processed

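Gene counts per sample were used as deposited. The authors extracted RNA with Qiagen RNeasy, made libraries with the NEBNext mRNA kit, and the submitters' processing notes name CASAVA 1.8, STAR 2.4.2a, featureCounts and GRCm38.p4. Counting options, strand setting and annotation release are not given in the sources used here, so reads shared with overlapping genes or near-identical copies may be split or lost. Identifiers were matched without version to GENCODE M21, which held 48435 of 49089. Library totals are those given in the report, and precision follows from them: the median SE over genes was 0.13 in the basal DKD comparison and 0.20 in the DKD difference in insulin effect.

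Counts were filtered with filterByExpr, TMM-scaled and fitted with edgeR 4.0.16 (R 4.3.3) quasi-likelihood tests in 1 model of 8 groups, giving 13 comparisons and Benjamini-Hochberg adjusted p. The study itself used limma with an FDR under 0.25, and for insulin effects also a fold over 1.5. Both rules were run here as alternatives on the edgeR fit, in every comparison. SE is the log2 fold change divided by the root of its F statistic. The test was tried on simulated data. Alternatives were DESeq2 1.42.0, limma-voom 3.58.1, other count filters, fits of the compared groups only, the replicate number as a block, a GC and length correction, sums with pseudogenes and leaving out each sample. Near-identical copies, at least 95% identical over 200 bases or more, were found with blastn 2.17.0, and sums with these were added after seeing the data. In each of the 42 within-group pairs counts differed by more than sampling noise (chi-square divided by its degrees of freedom, 1.75 or more).

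Members and gene lists were chosen with earlier results of these data known. Named genes were the called members with the largest changes (up to 6 in each direction for DKD at basal, insulin in Control, DKD after insulin and the DKD difference, up to 2 elsewhere), the 5 members farthest off in Control basal replicate 1, isoform families, members called alike in all insulin comparisons, Foxk1 and Foxk2, and at most 3 genes of any other list. Promoter windows came from RefSeq on GRCm38.p6.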

Additional observations from a re-analysis of the deposited data

Results flagged for a closer look

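In 96 groups of 4 samples (16 members, 6 groups), 8 had 1 sample far from the other 3, measured as its gap to the nearest sample divided by the range of the group. Chance gives such a gap in about 1 in 20 groups. The ratio was 0.919 for Cox7c and 0.851 for Cox5a, both high in Control basal replicate 1. These 2 are among the 5 members named for their distance in that library, so the rate does not apply to them. FoxK1 KD basal replicate 2 stood apart for Cox7b (0.95) and Uqcrc2 (0.905), being the highest sample in both. DKD basal replicate 3 was the highest sample for Atp5o (0.872) and for Cyc1 (0.921). FoxK1 KD insulin replicate 4 was the lowest sample for Atp5f1 (0.841), and FoxK2 KD insulin replicate 4 the lowest for Atp5g1 (0.832).

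The insulin effect differed between DKD and Control cells, by the interaction term of the edgeR fit, for Cox7c by 1.967 and for Uqcrfs1 by 0.664 on the log2 scale. With the GC and length trends taken out the difference for Cox7c was 1.782 (edgeR FDR 0.067).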

How the results depend on the processing

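No call among the 35 member calls changed direction under any alternative run. Numbers of calls lost were 3 with DESeq2, 5 with limma-voom, 10 with only the groups compared, 5 with the GC and length trends taken out, 20 with an FDR below 0.25 and fold above 1.5, 73 of 286 when single libraries were left out, and 0 with other count filters or with pseudogene reads added.

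Members called changed as follows. The share of all genes called was not taken for the other tests, filters, FDR rules or fits of the compared groups. These counts therefore cannot be set against all genes. With GC and length corrected, 13.8% of all genes rose and 14.3% fell with insulin in Control. The shares were 14.3% and 15.6% in FoxK1 KD cells, 8.54% and 9.1% in DKD cells, and 0.598% and 0.422% for the DKD difference. For FoxK1 KD at basal (3) there were 1 with limma-voom, 10 with at least 1 count in any sample, 0 with only the groups compared, 14 at FDR below 0.25 and 1 with the fold minimum as well. For FoxK2 KD at basal (0) there were 6 with at least 1 count. For DKD at basal (9) there were 16 at FDR below 0.25 and 4 with the fold minimum. Insulin in Control (5) gave 8 with at least 1 count, 8 with GC and length corrected, 2 with only the groups compared, 12 at FDR below 0.25 and 2 with the fold minimum. Insulin in FoxK1 KD (7 higher) gave 11 with GC and length corrected, 7 higher and 4 lower, 15 at FDR below 0.25 and 4 with the fold minimum. Insulin in FoxK2 KD (8) gave 14 and 2 under these FDR rules. Insulin in DKD (1) gave 3 with at least 10 counts, 5 with at least 1, 2 with GC and length corrected, 7 with only the groups compared and 10 at FDR below 0.25. FoxK1 KD after insulin (0) gave 2 with at least 1 count. The FoxK1 KD difference in insulin effect (0) gave 4 with at least 1 count and 4 under either FDR rule, that of FoxK2 KD (0) gave 1 with at least 1 count, and that of DKD (2) gave 1 with limma-voom, 6 with at least 1 count, 1 with GC and length corrected and 0 with only the groups compared. The cause of these shifts was not tested.

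Leaving out 1 library gave 0 to 7 calls for FoxK1 KD at basal, 6 to 10 for DKD at basal, 4 to 6, 6 to 8, 3 to 9 and 0 to 4 for the insulin effect (Control first, then FoxK1 KD, then FoxK2 KD, then DKD cells), 0 to 3 for the DKD difference, and 0 for the others. Except without Control basal replicate 1, the share of all genes called was not taken for these fits, here or above. Nor was it taken for the fit with the replicate block. Replicate numbers only share a number: of 99 same-numbered pairs 8 had a correlation of deviations over 0.1 (mean -0.0134), against 41 of 294 other pairs. With the replicate block, insulin in DKD gave 3 calls and the DKD difference 1, and Atp5o in FoxK1 KD (edgeR FDR 0.0514), Atp5g3 in DKD at basal (edgeR FDR 0.0601) and Cox7c in the DKD difference (edgeR FDR 0.0534) were lost.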

Other observations

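Other respiratory genes were counted in the same fits. Of 38 nuclear-encoded subunits of complex I, the entry point for NADH electrons, 35 were tested, and in DKD cells at basal 4 rose (11.4%) and 3 fell (8.57%), beside 10.3% and 10.8% of all genes, with a median log2 fold change of -0.004. Leaving out Control basal replicate 1 gave 6 and 3, beside 13% and 13.9% of all genes. Insulin raised 4 and lowered 1 of them in Control cells (11.4% and 2.86%, beside 12.4% and 13.1% of all genes). Without that library it raised 4 and lowered 2, beside 13.1% and 12.5%. The counts were 5 and 1 in FoxK1 KD (14.3% and 2.86%, beside 16.2% and 15.4%), 3 and 3 in FoxK2 KD (8.57% each, beside 14.4% and 13.7%), and 1 and 0 in DKD cells (2.86% and 0%, beside 8.31% and 7.99%). Among the 4 subunits of complex II, Sdha rose in DKD cells at basal by 0.19 ± 0.07 on the log2 scale (edgeR FDR 0.0421). Of 12 nuclear regulators of respiratory genes, 1 (8.33%) rose in DKD cells at basal and none fell, beside 10.3% and 10.8% of all genes. It was Tfam, which packages and transcribes mitochondrial DNA (log2 fold change 0.47 ± 0.12, edgeR FDR 0.00361). Without Control basal replicate 1, 3 rose and 1 fell, beside 13% and 13.9%. Nrf1 was then among those higher (0.356 ± 0.123, edgeR FDR 0.0284), and Ppargc1a was lower (-0.257 ± 0.095, edgeR FDR 0.042). Both fall outside the rule for named genes and were chosen after their values were seen. Insulin in Control cells raised the coactivator gene Pprc1 by 0.48 ± 0.09 and changed Gabpa by -0.34 ± 0.09 (edgeR FDR 0.000154 and 0.00282). They were the only regulators called there (8.33% each way, beside 12.4% and 13.1% of all genes). These calls of Sdha, Tfam, Pprc1 and Gabpa held without Control basal replicate 1.

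Of 92 cytosolic ribosomal protein genes, 82 were tested. In DKD cells at basal 8 rose (9.76%) and 6 fell (7.32%), beside 10.3% and 10.8% of all genes. Without Control basal replicate 1 there were 6 and 6 of 81, beside 13% and 13.9%. Insulin raised 2 and lowered 15 in Control cells (2.44% and 18.3%, beside 12.4% and 13.1%). Without that library it raised 2 and lowered 10, beside 13.1% and 12.5%. The counts were 5 and 6 in FoxK1 KD (6.1% and 7.32%, beside 16.2% and 15.4%), 1 and 16 in FoxK2 KD (1.22% and 19.5%, beside 14.4% and 13.7%), and 0 and 15 in DKD cells (0% and 18.3%, beside 8.31% and 7.99%). Many of these genes have near-identical pseudogenes, and how reads were divided among them was not tested.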
